A study of Schizosaccharomyces pombe with 40 samples.

Results

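The 167 RNAs described here are noncoding RNAs of the fission yeast Schizosaccharomyces pombe that were present at low levels in wild-type cells. They are the genes whose systematic name begins with SPNCRNA, which do not carry the word antisense in their name, and whose mean over 2 wild-type libraries was at least 1 and below 5 scaled CPM. Scaled CPM is the authors' read count per gene times 1 constant per library, close to a count per unit of sequencing depth. The table holds 7013 genes, of which 1535 are SPNCRNA genes and 900 of those are not named as antisense. Of these 900, 432 lay below 1, 299 lay at 5 or above, 167 lay in between, and 2 were not counted by the rule. The members were thus selected on their level in those 2 libraries, so that level and every contrast that uses those libraries are given as description only.

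Most noncoding RNAs of this kind are made by RNA polymerase II from intergenic DNA, from promoters that fire in both directions, or across coding genes. Most have no known function. In fission yeast many of them are degraded in the nucleus by the exosome and its cofactors, and others are held down by histone deacetylases and histone chaperones. ELL is an elongation factor that raises the rate of RNA polymerase II, EAF is its partner, and Ebp1 is a protein that binds the pair. The study set deletions of the gene of each protein against wild type.

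PolyA RNA was sequenced from 17 libraries in 7 groups, of cells grown in rich medium at 32 °C to mid log phase. The ED666 set held 3 ebp1Δ libraries (delta-ebp1::kanMX6), 3 eaf1Δ libraries (delta-eaf1::kanMX6) and 3 wild-type libraries. A second ED666 set, whose replicates carry the suffix b and which is called ED666b here, held 2 ell1Δ libraries (delta-ell1::kanMX6) and 2 wild-type libraries. These wild-type libraries are the 2 that the rule used. Every ED666 and ED666b strain was labelled h+ and carried ade6-M210, ura4-D18 and leu1-32. The Pem2 set held 2 ell1Δ libraries (PEM-2; delta-ell1::natMX6) and 2 wild-type libraries, and this wild type was h-, carried smt0, mat1_m-cyhS and rpl42::cyhR(sP56Q), and shared leu1-32, ade6-M210 and ura4-D18 with the others. Strain and set cannot be told apart between Pem2 and ED666b. Whether replicates were grown as separate cultures is stated nowhere in the labels, and the p-values below therefore rest on a spread between libraries that may be technical. In bulk RNA, fewer cells making an RNA and less RNA per cell cannot be told apart.

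ED666 libraries held 6486554 to 9193169 reads, ED666b libraries 38150862 to 43374049 and Pem2 libraries 35337271 to 40796006. A median member therefore rested on 14 to 24 reads in an ED666 library and on 83 to 118 reads in the others. The limit that a count of 0 allows, 3 reads, was 0.335 to 0.456 scaled CPM in ED666 and 0.0704 to 0.0835 in the other sets. The columns of the ebp1Δ libraries carry a code that no label explains and were assigned as the only RNA libraries left over. Each deleted gene was low but not at 0 in its own deletion. For ebp1 the values were 9.84, 10.2 and 8.28 scaled CPM in ebp1Δ against 61.2, 66.3 and 79.6 in ED666 wild type, and for eaf1 they were 22.3, 19.0 and 22.0 in eaf1Δ against 56.8, 48.5 and 43.4 in wild type. For ell1 they were 16.6 and 20.6 in ED666b ell1Δ against 84.6 and 73.5 in wild type, and 25.3 and 31.1 in Pem2 ell1Δ against 68.5 and 71.4. The gene ura4, which every ED666 label gives as deleted, was at 0 in every library except eaf1Δ replicate 3, where it was at 3.60. The library labelled eaf1Δ replicate 3 goes against its label in this respect. The counts of members that limma called in eaf1Δ are given with and without it.

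The 167 RNAs were scarce in ED666b wild type by the rule that chose them. The median over them stayed close to that level in all 7 groups. Their lengths ran from 75 to 3374 bases with a median of 759. Per length, their mean level in ED666b wild type ran from 0.493 to 29.1 RPKM with a median of 3.26, beside a median of 37.1 RPKM for all 6160 genes tested. All 167 passed the filter on low values, which asked for at least 1 scaled CPM in 2 or more of the 17 libraries. The median of the members' group means lay between 2.30 scaled CPM in ebp1Δ and 2.62 in Pem2 ell1Δ. In 93 of the 167 the mean stayed between 1 and 5 in every group. The range of the 7 group means on the log2(scaled CPM + 1) scale had a median of 0.61. It reached 1 in 26 members and 2 in 4, and was 4.17 at most. Such ranges were not computed over all genes tested.

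**Figure D1:**
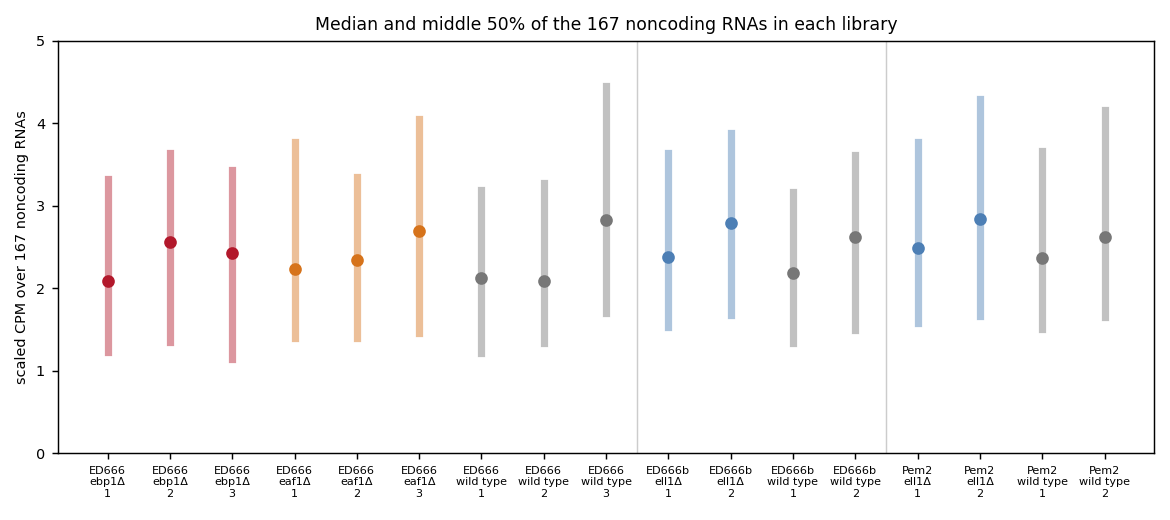
Level of the 167 noncoding RNAs in each of the 17 libraries (y axis, scaled CPM; x axis, library by set, genotype and replicate), with the point at the median and the bar over the middle 50% of the members. Library medians run from 2.08 to 2.84, ED666 wild-type replicate 3 lies above its other replicates at 2.82, and in ED666b and Pem2 each library numbered 2 lies above the library numbered 1 of its group.

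At the bounds of the rule, SPNCRNA.775 and SPNCRNA.1172 were the lowest members, both with a mean of 1.02 scaled CPM, and SPNCRNA.1339 and SPNCRNA.362 fell just outside at 0.990 each. At the other bound SPNCRNA.1246 at 4.94 and SPNCRNA.1216 at 4.95 were the last inside, and SPNCRNA.974 at 5.03 and SPNCRNA.943 at 5.05 were the first outside. The bounds thus cut a continuous range of levels. Among members close to the upper bound, SPNCRNA.1562 had one of the 10 highest group means, at 7.44 ± 1.56 scaled CPM in ebp1Δ and 8.47 ± 1.33 in eaf1Δ against 5.72 ± 1.76 in ED666 wild type (SD, n = 3 each), and was not called.

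The gene order of RefSeq assembly ASM294v3, which is later than the build the authors used, placed 165 of the 167 members. Of these, 162 had the same length there as the gene counted. The RNAs SPNCRNA.911 and SPNCRNA.1531 were not matched. Of the 165, 69 overlapped a coding gene, 42 of them only on its opposite strand, 22 only on the same strand and 5 on both. The other 96 lay between coding genes. Of these 96, 78 (81.3%) had their upstream coding neighbour on the opposite strand, the arrangement of an RNA that starts back to back with a coding gene. The noncoding RNAs at 5 or above were arranged alike, with 113 of 140 (80.7%). No source used here says whether the authors counted reads by strand. Reads of the 69 overlapping members, and of the 29 members between genes that overlap another noncoding gene of the table, could therefore belong to the overlapping gene. Of the members called below, SPNCRNA.121, SPNCRNA.403, SPNCRNA.737, SPNCRNA.1089 and SPNCRNA.1315 are among these 29.

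Loss of Ebp1 changed 8 of the 167 members, 5 up and 3 down, at an adjusted p of 0.05 (limma over all genes tested). Over all 6160 genes tested 3.67% were called in this comparison, 0.925% up and 2.74% down, and the members' share was 4.79%. The RNAs that rose were SPNCRNA.1364, SPNCRNA.737, SPNCRNA.750, SPNCRNA.1385 and SPNCRNA.1282, and those that fell were SPNCRNA.121, SPNCRNA.188 and SPNCRNA.828. The members' median log2 fold change was -0.07, beside 0.01 for all genes tested. Every ebp1Δ library lay below every wild-type library for 25 members (15%), beside 9.69% of all genes tested, and above for 9 members (5.39%), beside 7.73%. With the libraries quantile-normalized the members' median was 0.03, and without wild-type replicate 3 it was 0.01, so the sign of the median depends on the scaling and on that library.

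SPNCRNA.1364 had the largest log2(value + 1) fold change of the members. It had 7.01, 10.8 and 9.86 scaled CPM in ebp1Δ, against 2.89, 4.31 and 3.95 in ED666 wild type. The groups did not overlap, and the log2 fold change was 1.11 (SE 0.28, limma adjusted p = 0.0467). This RNA runs across SPBC1685.04 and SPBC1685.05 on their opposite strand. SPNCRNA.737, which lies between fin1, a mitotic kinase gene, and the cyclin gene pas1, had 4.06, 8.09 and 7.14 in ebp1Δ, against 2.13, 3.12 and 2.40 in wild type. Its groups were likewise apart, at a log2 fold change of 1.03 (SE 0.25, adjusted p = 0.0376). It was the only member that edgeR's test on the recovered reads also called in this comparison (adjusted p = 0.0471), where edgeR called 2.89% of all genes. Both RNAs had wide eaf1Δ groups that overlapped the wild type, at 5.30, 4.13 and 8.54 for SPNCRNA.1364 and 2.51, 4.13 and 6.63 for SPNCRNA.737.

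SPNCRNA.750 had 2.09, 1.62 and 0.857 scaled CPM in ebp1Δ, against 0, 0.595 and 0.424 in ED666 wild type. The wild-type values are at or close to the limit of 3 reads, so the fold change of 0.91 (SE 0.22, adjusted p = 0.0390) on the log2(value + 1) scale understates the ratio. The other rises were smaller. SPNCRNA.1385 had 2.34, 2.56 and 2.43 in ebp1Δ against 1.97, 0.892 and 1.41 in wild type, a log2 fold change of 0.53 (SE 0.13, adjusted p = 0.0461). It lies on the same strand as anc1, the gene of the mitochondrial ADP/ATP carrier, and overlaps it. The mRNA of anc1 rose as well, by a log2 fold change of 0.47 (SE 0.08, adjusted p = 0.00546), at 1061 ± 27.0 scaled CPM in ebp1Δ and 769 ± 87.2 in wild type (SD, n = 3 each), and how its reads enter the count of SPNCRNA.1385 was not tested. SPNCRNA.1282, opposite to the DNA glycosylase gene thp1, had 3.44, 3.64 and 4.43 in ebp1Δ against 2.13, 2.38 and 2.82 in wild type, a log2 fold change of 0.49 (SE 0.12, adjusted p = 0.0452).

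Of the RNAs that fell, SPNCRNA.121 was the clearest. It had 0.738, 0.674 and 1.0 scaled CPM in ebp1Δ, against 1.52, 2.08 and 1.98 in wild type, and the groups did not overlap. The change was -0.66 on the log2 scale (SE 0.11, adjusted p = 0.00348), the smallest adjusted p of any member in the comparisons with wild type. SPNCRNA.121 lies between SPCC965.12 and SPCC965.13 on their strand, and SPCC965.13 also fell, with a log2 fold change of -0.35 (SE 0.08, adjusted p = 0.0228), at 133 ± 0.757 scaled CPM in ebp1Δ and 171 ± 15.2 in wild type. SPNCRNA.188, between gcn1 and utp11, had 1.48, 0.674 and 1.71 in ebp1Δ against 2.58, 2.53 and 2.40 in wild type. That is a log2 fold change of -0.64 (SE 0.15, adjusted p = 0.0324), again with no overlap. SPNCRNA.828, on the opposite strand of SPAC32A11.02c, had 1.72, 2.29 and 2.71 in ebp1Δ and 3.95, 3.12 and 4.38 in wild type, a log2 fold change of -0.57 (SE 0.14, adjusted p = 0.0478).

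**Figure D2:**
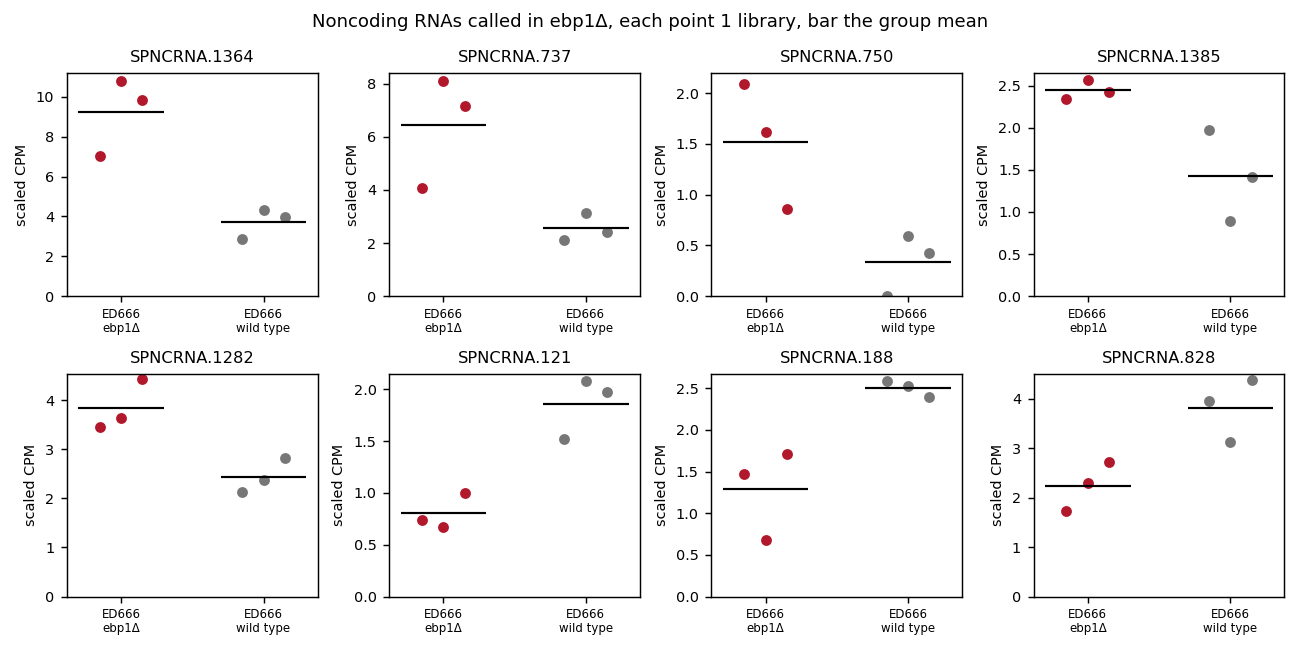
The 8 members called in ebp1Δ, with scaled CPM on the y axis, ebp1Δ left and ED666 wild type right; each point is 1 library and the bar is the group mean. The groups do not overlap in any of the 8 panels, and 5 members are higher and 3 lower in ebp1Δ.

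These calls rest on few libraries. Leaving out ebp1Δ replicate 2 left 1 member called (beside 2.18% of all genes tested). Leaving out wild-type replicate 1 left 2 (beside 3.31%) and leaving out wild-type replicate 2 left 5 (beside 4.12%). Without any of the other 3 libraries 6 to 9 were called (beside 2.29% to 5.97%). With quantile-normalized libraries 8 members were called, 7 up and 1 down, beside 3.83% of all genes tested. The authors' deposited table gave SPNCRNA.1364, SPNCRNA.737 and SPNCRNA.750 as higher in ebp1Δ at an adjusted p of 0.05, and no member as lower, where it called 3.24% of its 7013 genes.

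Loss of Eaf1 changed 1 member, SPNCRNA.750, which rose (limma; 0.844% of all genes tested were called, 0.519% up and 0.325% down; edgeR called no member and 0.422% of all genes). It had 1.53, 2.01 and 1.69 scaled CPM in eaf1Δ, against 0, 0.595 and 0.424 in ED666 wild type, a log2 fold change of 1.06 (SE 0.22, adjusted p = 0.0458). Without eaf1Δ replicate 3 no member was called, beside 0.341% of all genes tested. The fold change of SPNCRNA.750 was then 1.07 (limma adjusted p = 0.131). Its call was also lost without eaf1Δ replicate 1 or 2 and without wild-type replicate 1 or 3. By unadjusted p below 0.05, 31 members (18.6%) passed, beside 13.1% of all genes tested, and 19 (11.4%, beside 9.22%) without replicate 3. Every eaf1Δ library lay above every wild-type library for 15 members (8.98%, beside 7.22% of all genes) and below for 6 (3.59%, beside 7.68%). Without replicate 3 these counts were 22 (13.2%, beside 10.2%) and 11 (6.59%, beside 10.4%). The members' median log2 fold change was 0.03, and -0.01 without eaf1Δ replicate 3, beside -0.01 for all genes tested. Without wild-type replicate 3 the members' median was 0.13, beside -0.01 for all genes tested. In that fit 1 member was called by limma, lower in eaf1Δ, beside 1.14% of all genes tested.

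Below the threshold, 3 further RNAs had eaf1Δ libraries well clear of the wild type. SPNCRNA.911 had 8.09, 8.04 and 8.77 scaled CPM in eaf1Δ against 3.64, 3.72 and 4.24 in wild type, a log2 difference of 0.94 (SE 0.20, adjusted p = 0.0523). SPNCRNA.855 had 8.79, 8.59 and 9.33 in eaf1Δ and 4.40, 3.72 and 5.22 in wild type (adjusted p = 0.0871). SPNCRNA.1315 had 8.65, 10.9 and 9.22 in eaf1Δ and 6.38, 5.06 and 5.79 in wild type (adjusted p = 0.141). In each of the 3 the lowest eaf1Δ library stood above the highest wild-type library, but the difference did not pass the test. Without eaf1Δ replicate 3 their adjusted p-values were 0.169, 0.264 and 0.296. The authors' deposited table gave SPNCRNA.750, SPNCRNA.855 and SPNCRNA.911 as higher in eaf1Δ, with adjusted p-values of 0.00915, 0.0148 and 0.0148, where it called 1.28% of its genes.

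SPNCRNA.855 lies back to back with spd2 and upstream of erf4, a subunit gene of a palmitoyltransferase, and the mRNA of spd2 did not pass the test in eaf1Δ (log2 difference 0.17, SE 0.09, adjusted p = 0.419). SPNCRNA.1315 lies between SPBC1683.04 and SPBC1683.03c and overlaps another noncoding gene, SPNCRNA.297. SPNCRNA.750 is a locus of dense annotation, where 1 coding gene on its strand and 2 on the opposite strand overlap it.

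The comparison of eaf1Δ with ebp1Δ uses neither wild type. It called 8 members, all higher in eaf1Δ, where 2.97% of all genes tested were called, 2.35% up and 0.617% down. The edgeR test called 3 of them, SPNCRNA.911, SPNCRNA.900 and SPNCRNA.1315, and 2.39% of all genes. Leaving out any 1 of the 6 libraries lowered the count. It was 5, 2 and 2 without ebp1Δ replicates 1, 2 and 3, and 4, 4 and 5 without eaf1Δ replicates 1, 2 and 3. The share of all genes tested that were called was then 1.67% to 2.47%. The members' median log2 fold change was 0.11, and 0.06 without eaf1Δ replicate 3, beside -0.01 over all genes tested in both fits. With all libraries, every eaf1Δ library lay above every ebp1Δ library for 31 members (18.6%, beside 13.1%) and below for 15 (8.98%, beside 11%). With quantile-normalized libraries 11 members were called, 7 higher and 4 lower in eaf1Δ, beside 3.17% of all genes tested. The members' median was then 0.01.

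SPNCRNA.911 had the largest log2 fold change of the 8 called members. Its eaf1Δ values of 8.09, 8.04 and 8.77 stood against 4.18, 2.16 and 4.14 in ebp1Δ, a log2 fold change of 1.08 (SE 0.20, adjusted p = 0.00995). It stayed called under all 13 alternatives run for this comparison, the edgeR test and the fits without 1 library among them. SPNCRNA.900, back to back with the glutamate synthase gene glt1, had 6.14, 6.14 and 5.51 in eaf1Δ against 3.32, 2.16 and 2.43 in ebp1Δ (log2 fold change 0.94, SE 0.18, adjusted p = 0.0117). Its wild-type values of 4.10, 4.61 and 5.65 overlapped those of eaf1Δ and lay above those of ebp1Δ, but SPNCRNA.900 did not pass the test between ebp1Δ and wild type (log2 difference -0.67, SE 0.18, adjusted p = 0.0597). SPNCRNA.855 and SPNCRNA.1315, described above, were higher in eaf1Δ by 0.90 each (SE 0.21, adjusted p = 0.0397, and SE 0.18, adjusted p = 0.0180).

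The remaining 4 were SPNCRNA.121, SPNCRNA.1089, SPNCRNA.403 and SPNCRNA.1259. SPNCRNA.121, at 1.95, 1.56 and 2.02 in eaf1Δ against 0.738, 0.674 and 1.0 in ebp1Δ, differed by 0.66 (SE 0.11, adjusted p = 0.00490). SPNCRNA.1089 had 2.93, 2.12 and 3.15 in eaf1Δ against 1.35, 1.21 and 1.0 in ebp1Δ, a difference of 0.76 (SE 0.17, adjusted p = 0.0282). This RNA lies upstream of SPAC922.04 on its strand, and SPAC922.04 moved with it, at 710 ± 62.0 scaled CPM in eaf1Δ and 387 ± 42.8 in ebp1Δ (log2 fold change 0.88, SE 0.12, adjusted p = 0.00174). Against wild type, SPAC922.04 fell in ebp1Δ by 1.08 on the log2 scale (SE 0.12, adjusted p = 2.78e-04), whereas SPNCRNA.1089 did not pass the test there (log2 difference -0.60, SE 0.17, adjusted p = 0.0753).

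SPNCRNA.403, between ubp14 and prp1, was close to the limit of detection in ebp1Δ. It had 1.81, 1.0 and 1.24 scaled CPM in eaf1Δ against 0.369, 0.405 and 0.429 in ebp1Δ, where each value is 3 reads, and differed by 0.73 (SE 0.15, adjusted p = 0.0188). SPNCRNA.1259, which overlaps the peroxiredoxin gene tpx1 on its strand, had 3.77, 3.01 and 2.70 in eaf1Δ against 1.72, 1.35 and 2.0 in ebp1Δ (0.63, SE 0.14, adjusted p = 0.0334). Of the 8, SPNCRNA.1315, SPNCRNA.855, SPNCRNA.403 and SPNCRNA.1089 were not called without eaf1Δ replicate 3, with adjusted p-values of 0.0549, 0.130, 0.0528 and 0.122.

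No member was called by limma between ell1Δ and wild type in Pem2, where 0.244% of all genes tested were called. At an unadjusted p below 0.05, 15 members (8.98%) passed, beside 4.24% of all genes tested, and edgeR's quasi-likelihood test on the recovered reads called 3, SPNCRNA.750, SPNCRNA.911 and SPNCRNA.998, where it called 0.617% of all genes. Every ell1Δ library lay above every wild-type library for 31 members (18.6%, beside 19.2% of all genes) and below for 26 (15.6%, beside 18.7%). The members' median log2 difference was 0.01, and -0.08 with quantile-normalized libraries, beside 0.00 for all genes tested.

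The 3 RNAs that edgeR called were the 3 members with a log2 difference of 1 or more in either direction. SPNCRNA.750 had 3.01 and 4.41 scaled CPM in Pem2 ell1Δ, against 0.418 and 1.25 in Pem2 wild type, a log2 difference of 1.38 (SE 0.27, limma adjusted p = 0.0551, edgeR adjusted p = 0.0438). SPNCRNA.911 had 7.42 and 7.74 in ell1Δ against 1.87 and 3.78 in wild type, a difference of 1.21 (SE 0.25, limma adjusted p = 0.0679, edgeR adjusted p = 0.0465). Without Pem2 wild-type replicate 2, the library with the higher wild-type values, limma called both. SPNCRNA.998, the longest member, runs across nbp35, a gene of iron-sulphur cluster assembly, on its opposite strand. It had 3.11 and 4.02 in ell1Δ against 0.807 and 1.15 in wild type, a difference of 1.2 (SE 0.28, limma adjusted p = 0.151, edgeR adjusted p = 0.0313).

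In ED666b the control libraries are those the rule used, so the following values describe and test nothing. No member was called there by limma (0.519% of all genes tested were), and 14 had an unadjusted p below 0.05 (8.38%, beside 5.76%). The edgeR test called 2, SPNCRNA.388 and SPNCRNA.998, and 0.812% of all genes. SPNCRNA.911 had 9.11 and 7.57 scaled CPM in ell1Δ and 3.90 and 2.81 in wild type. SPNCRNA.750 had 3.78 and 3.62 in ell1Δ and 1.18 and 0.980 in wild type. SPNCRNA.1315 had 7.75 and 10.05 in ell1Δ and 4.27 and 3.47 in wild type. SPNCRNA.998 had 5.75 and 4.54 in ell1Δ and 2.03 and 1.3 in wild type, and SPNCRNA.1676, back to back with the spliceosome gene lea1, had 6.76 and 7.83 in ell1Δ and 3.42 and 3.74 in wild type. All 5 were therefore higher in ell1Δ in this set without overlap, as 49 members (29.3%) were, beside 20.3% of all genes tested. The authors' deposited table gave 6 members as higher in ED666b ell1Δ, where it called 1.58% of its genes, and 4 in Pem2 ell1Δ, where it called 1.33%, and none as lower. The RNAs SPNCRNA.750, SPNCRNA.911 and SPNCRNA.998 were among both.

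The difference between the ell1Δ effects in ED666b and Pem2 also uses the libraries of the rule, so the following values describe only. Neither limma nor edgeR called a member in it, and each called 0.0325% of all genes tested. By limma, 1 member (0.599%, beside 1.01% of all genes tested) had an unadjusted p below 0.05. For 17 members (10.2%, beside 6.93% of all genes tested) every ell1Δ library lay above every wild-type library in both sets. For 6 (3.59%, beside 5.18%) every ell1Δ library lay below in both.

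**Figure D3:**
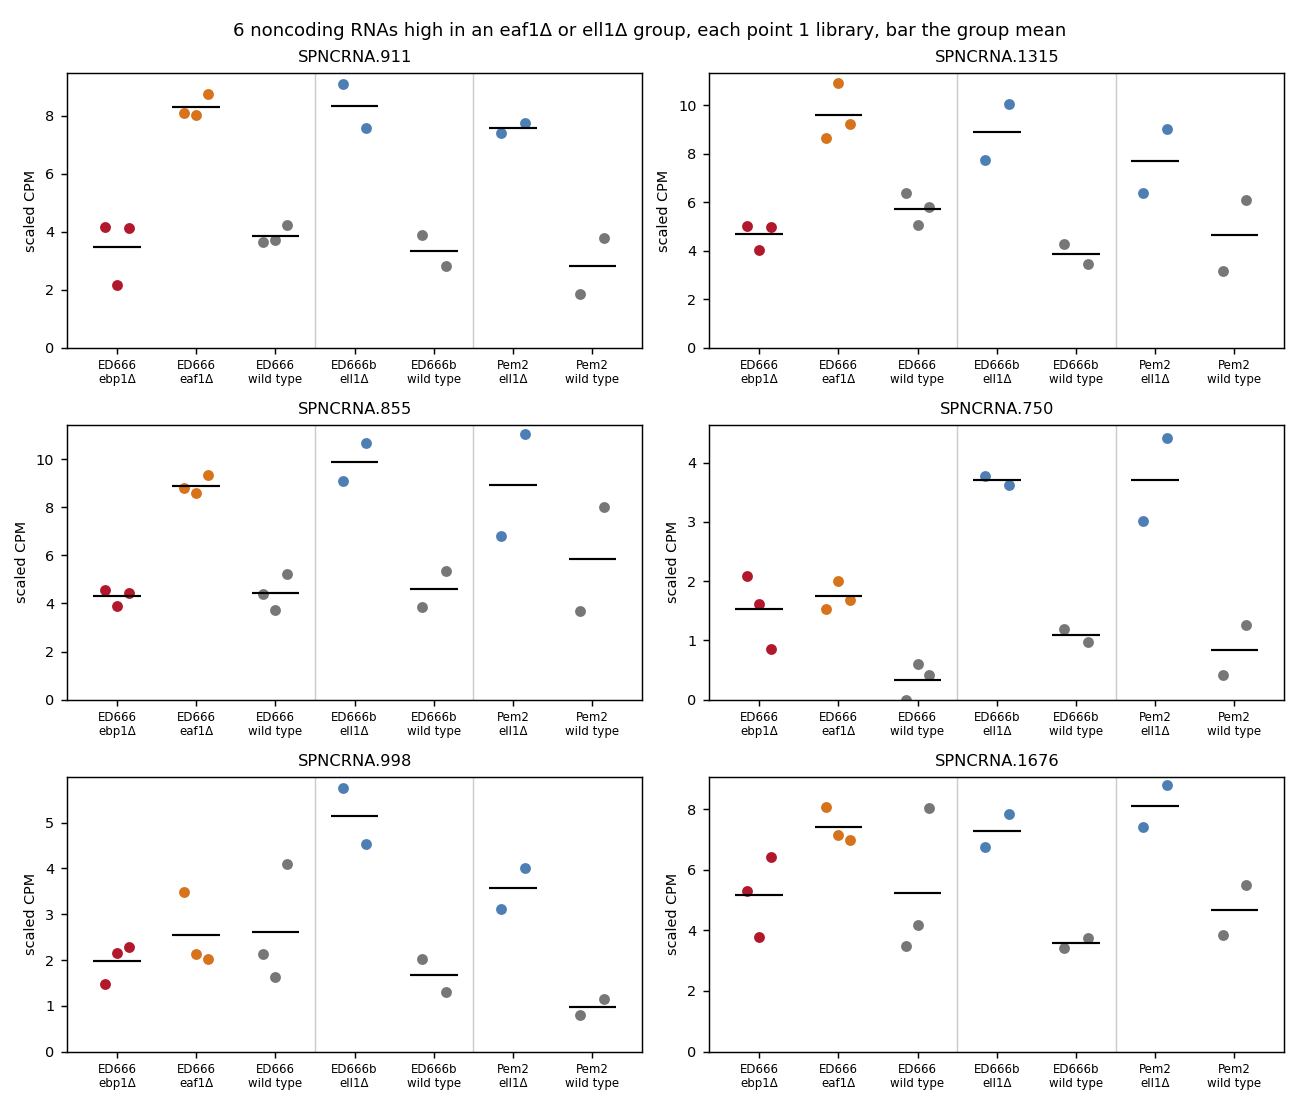
Scaled CPM (y axis) of 6 members in all 7 groups (x axis), 1 point per library with the group mean as a bar. SPNCRNA.911, SPNCRNA.1315 and SPNCRNA.750 have every eaf1Δ and every ell1Δ library above the wild type of its own set, SPNCRNA.998 is high in both ell1Δ groups and overlaps the wild type in eaf1Δ, and SPNCRNA.911, SPNCRNA.1315 and SPNCRNA.855 sit near their wild type in ebp1Δ.

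The comparison of eaf1Δ with ED666 wild type and that of ell1Δ with Pem2 wild type share no library, and neither uses the libraries of the rule. Across the 167 members their log2 fold changes had a Pearson correlation of 0.37 and a Spearman correlation of 0.22, beside 0.32 and 0.21 across all 6160 genes tested. Without eaf1Δ replicate 3 Pearson's value was 0.40 for the members and 0.35 for all genes. These correlations are across genes, which are not independent replicates. SPNCRNA.750, SPNCRNA.911, SPNCRNA.1315 and SPNCRNA.1282 were the 4 members (2.40%, beside 3.18% of all genes tested) in which every library of both deletions lay above its wild type, and SPNCRNA.188 was the 1 member (0.599%, beside 2.53%) in which every library lay below. All 4 of the first were also above in ED666b ell1Δ, where 1.95% of all genes tested were above in all 3, and SPNCRNA.188 was also below there, as 1.4% of all genes were. The control of ED666b ell1Δ is the libraries of the rule, so every count here that includes this set describes only. Without eaf1Δ replicate 3, 8 members (4.79%, beside 4.19% of all genes tested) lay above in eaf1Δ and Pem2 ell1Δ, 7 of them (4.19%, beside 2.40%) in ED666b ell1Δ as well, and 2 (1.2%, beside 3.25%) lay below in eaf1Δ and Pem2 ell1Δ.

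SPNCRNA.188, below its wild type in both deletions, had 1.53, 1.67 and 1.46 scaled CPM in eaf1Δ against 2.58, 2.53 and 2.40 in ED666 wild type, and 2.34 and 3.31 in Pem2 ell1Δ against 4.06 and 4.49 in Pem2 wild type. Neither difference passed the test (adjusted p = 0.209 for eaf1Δ and 0.910 for ell1Δ). SPNCRNA.1282 had 3.63, 3.35 and 3.03 in eaf1Δ, and 4.28 and 4.46 in Pem2 ell1Δ against 2.28 and 3.63 in Pem2 wild type. It did not pass in either (adjusted p = 0.255 and 0.553).

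**Figure D4:**
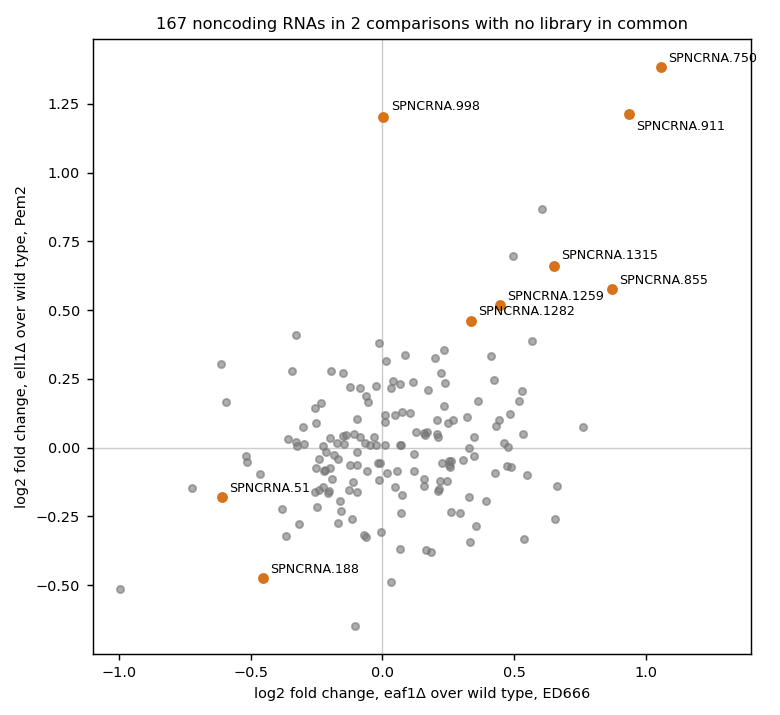
Log2 fold change of the 167 members in eaf1Δ over ED666 wild type (x axis) and in ell1Δ over Pem2 wild type (y axis), 2 comparisons with no library in common, with 9 members marked and named. Most members lie within 0.5 of 0 on both axes, SPNCRNA.750 and SPNCRNA.911 are high on both, and SPNCRNA.998 lies at 1.2 in ell1Δ and at 0.00 in eaf1Δ.

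The largest ranges among the members lay between the sets of libraries and not between deletion and wild type. The RNA srp7 (SPNCRNA.98), the RNA component of the signal recognition particle, had 68.6, 7.55 and 7.43 scaled CPM in ebp1Δ, 4.74, 7.81 and 80.8 in eaf1Δ, and 5.62, 26.8 and 32.9 in ED666 wild type. In ED666b and Pem2 it ran from 0.540 to 1.2 in all 8 libraries, so the sets did not overlap. No comparison of a deletion with wild type passed for srp7. Its deletion and wild-type libraries overlapped in ED666 and in ED666b. In Pem2 every ell1Δ library lay above every wild-type library. Over the 7 group means the genes most like it were the mitochondrial genes SPMIT.06, cob1 and cox2 (Pearson's r = 0.999 each, a description over means that share their libraries). The summed level of the 36 mitochondrial genes of the table ranged from 37.8 to 708 scaled CPM in ED666 and from 1.53 to 5.22 in the other sets. The highest were 708 in eaf1Δ replicate 3 and 539 in ebp1Δ replicate 1, the same libraries in which srp7 was highest, and the part of RNA selection or library preparation in this was not tested. The summed level of all members in eaf1Δ replicate 3 was 594 scaled CPM with srp7 and 513 without it.

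SPNCRNA.942, back to back with the spindle pole gene ppc89, was also higher in ED666. It had 9.23, 14.4 and 8.86 scaled CPM in ebp1Δ, 6.0, 9.82 and 13.4 in eaf1Δ and 3.19, 5.35 and 9.32 in ED666 wild type, against 1.43 to 2.58 in the other 8 libraries. SPNCRNA.1527 was the reverse. It had 0.123, 0.135 and 0 in ebp1Δ, 0.279, 0.558 and 0.337 in eaf1Δ and 0.304, 0.149 and 1.13 in ED666 wild type, against 1.84 to 3.66 elsewhere. Every ebp1Δ value, eaf1Δ replicate 1 and wild-type replicates 1 and 2 were under the limit of 3 reads, and eaf1Δ replicate 3 was at it. By likeness over the 7 group means, SPNCRNA.942 was closest to pmc3, ies4 and SPCC1442.13c (r = 0.996, 0.996 and 0.995), and SPNCRNA.1527 to twf1, cdc31 and alg10 (r = 0.996, 0.993 and 0.993). The sets also differ in depth, whose part in these ranges was not tested. ED666 and ED666b wild type carry the same genotype label. Between them, 3 members were higher in ED666 by 1 or more on the log2 scale and 1 was lower. The members' median difference was -0.01. The ED666b wild-type libraries are those of the rule, so these values describe only, and they were not computed over all genes tested.

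SPNCRNA.388 lies next to mat1-Mc, a mating-type gene, in the reference gene order. It had 11.3 and 14.3 scaled CPM in ED666b ell1Δ and 4.06 and 4.61 in ED666b wild type, but 21.2 and 19.6 in Pem2 ell1Δ and 20.2 and 18.4 in Pem2 wild type. In the ED666 set it had 2.83, 8.63 and 8.71 in ebp1Δ, 13.1, 12.6 and 12.0 in eaf1Δ and 7.74, 5.5 and 8.05 in wild type. Pem2 wild type was higher than ED666b wild type by 1.93 on the log2 scale, which describes the choice of members as well as the strains. No member passed limma in that comparison, where 0.0812% of all genes tested did. By limma, 4 members (2.40%, beside 5.83%) had an unadjusted p below 0.05. The edgeR test called 0.179% of all genes and, of the members, SPNCRNA.388 alone. Its eaf1Δ difference of 0.76 (SE 0.28, adjusted p = 0.255) and its Pem2 ell1Δ difference of 0.08 (SE 0.34, adjusted p = 1) did not pass. The coding gene on its other side, SPBC23G7.10c, had means of 2.41 ± 1.25 scaled CPM in ebp1Δ, 19.0 ± 8.35 in eaf1Δ and 6.45 ± 1.65 in ED666 wild type (SD, n = 3 each), and 25.6 ± 17 in Pem2 wild type against 2.67 ± 0.273 in ED666b wild type (SD, n = 2 each).

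**Figure D5:**
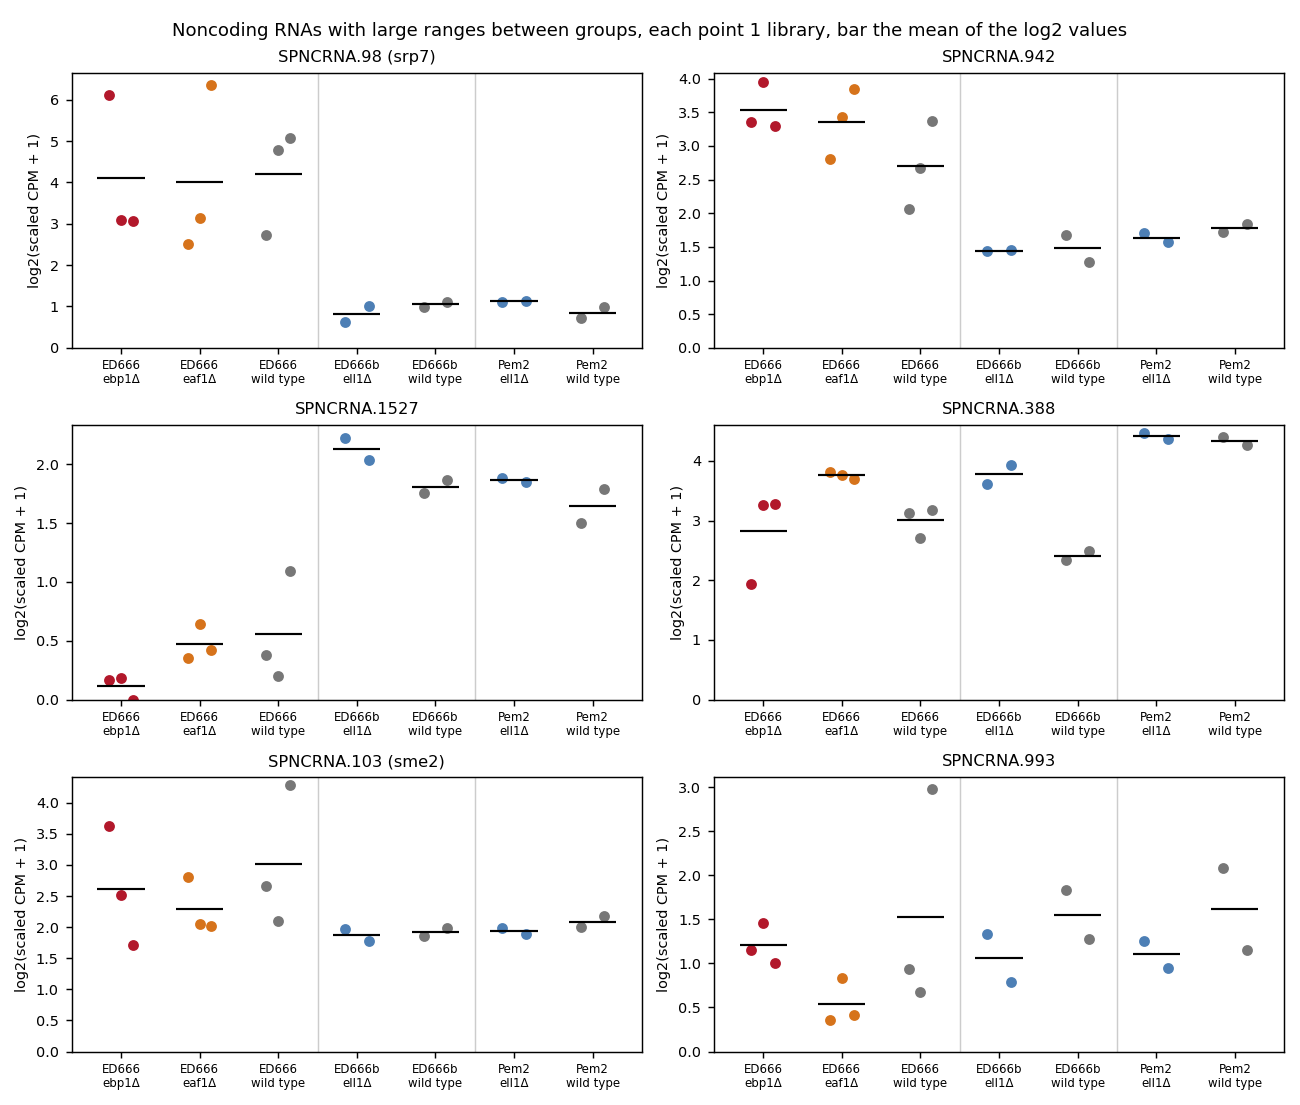
The 6 members with large ranges between groups, drawn as log2(scaled CPM + 1) on the y axis over the 7 groups, 1 point per library with the mean of the log2 values as a bar. srp7 and SPNCRNA.942 are high and SPNCRNA.1527 is low in the ED666 set, SPNCRNA.388 is highest in Pem2, and sme2 and SPNCRNA.993 are highest in ED666 wild-type replicate 3.

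ED666 wild-type replicate 3 stood apart from the other wild-type libraries of its set. It held the highest of the 3 values for 99 members (59.3%, beside 43.2% of all genes tested). For 15 of them (8.98%, beside 2.55%) it was at 2 or more scaled CPM and at least 2-fold above the next. The RNA sme2 (SPNCRNA.103), known as meiRNA, binds the meiotic regulator Mei2, and it had 11.3, 4.72 and 2.29 scaled CPM in ebp1Δ, 6.0, 3.13 and 3.03 in eaf1Δ and 5.31, 3.27 and 18.5 in ED666 wild type, with 2.44 to 3.51 in the other 8 libraries. In the reference gene order the locus overlaps mrpl8 on the same strand, but its length there differs from that of the gene counted. SPNCRNA.993, back to back with mei2 itself, had 1.23, 1.75 and 1.0 in ebp1Δ and 0.279, 0.781 and 0.337 in eaf1Δ, against 0.911, 0.595 and 6.92 in ED666 wild type. The mRNA of mei2 had means of 14.4 ± 2.33 in ebp1Δ, 4.56 ± 1.04 in eaf1Δ and 68.4 ± 105 in wild type (SD, n = 3 each), the last with an SD larger than its mean. The meiotic RNA meu3 (SPNCRNA.07) had 2.71, 4.45 and 4.57 in ebp1Δ, 2.23, 2.46 and 2.14 in eaf1Δ and 1.21, 1.34 and 5.93 in wild type. SPNCRNA.1120, between the hexose transporter genes ght8 and ght1, had 3.94, 6.34 and 3.43 in ebp1Δ, 1.39, 1.0 and 1.01 in eaf1Δ and 1.97, 0.743 and 5.65 in wild type. Its eaf1Δ libraries all lay below its ebp1Δ libraries, by a log2 difference of -1.35 that did not pass the test (SE 0.36, adjusted p = 0.0682). None of the 4 passed the test against wild type in either deletion, and the groups overlapped in each.

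Of the 167, 15 carry a name of their own. Beside srp7, sme2 and meu3 these are the small nucleolar RNA snR191 (SPNCRNA.499) and 11 RNAs of the prl series, which were found as polyadenylated RNAs without a long reading frame. None of the 15 was called in any comparison. The one with the most reads among the prl RNAs, prl24 (SPNCRNA.24), had 3.92 ± 0.674 scaled CPM in ebp1Δ, 4.70 ± 0.316 in eaf1Δ and 4.22 ± 0.485 in ED666 wild type (SD, n = 3 each). The smallest adjusted p of the 15 against wild type was that of prl51 (SPNCRNA.51), which had 1.39, 0.893 and 0.899 in eaf1Δ against 1.67, 1.78 and 3.11 in wild type, without overlap (log2 difference -0.61, SE 0.16, adjusted p = 0.106). The group means of prl4, prl36, prl54 and prl56 lay between 1.3 scaled CPM (prl4 in ebp1Δ) and 3.89 (prl56 in Pem2 ell1Δ). Per length, snR191, which lies within SPAC6F6.03c on its strand, was among the most abundant members, at 28.0 RPKM in ebp1Δ, 35.8 in eaf1Δ and 23.3 in ED666 wild type, and at 17.5 to 21.6 in the group means of the other sets.

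In all, 15 of the 167 members (8.98%, beside 5.60% of all genes tested) were called in at least 1 comparison, SPNCRNA.750 and SPNCRNA.121 in more than 1, and 152 in none. Divided by their place, the 78 members back to back with a coding gene had median log2 fold changes of -0.07 in ebp1Δ, 0.02 in eaf1Δ and -0.03 in Pem2 ell1Δ. The 42 members opposite to a coding gene had medians of 0.00, 0.01 and 0.00, and the 22 on the strand of a coding gene had -0.20, 0.04 and 0.03. The other 18 members between coding genes had -0.20, 0.03 and 0.01. The 5 that overlap coding genes on both strands had 0.21, 0.17 and 0.14. Over all genes tested the medians were 0.01, -0.01 and 0.00. No test was made between these places.

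Beside the members, the noncoding RNAs of the table at 5 or above held 36 calls of 299 in ebp1Δ (12.0%), 5 up and 31 down, with a median log2 fold change of -0.11. The antisense RNAs at 1 to below 5 held 12 calls of 194 (6.19%), 5 up and 7 down. In eaf1Δ these classes held 5 calls of 299 (1.67%) and 10 of 194 (5.15%), and in Pem2 ell1Δ 1 of 299 (0.334%) and 4 of 194 (2.06%). The members' shares of 4.79%, 0.599% and 0% were the lowest of the 3 classes in each of these comparisons, a description without a test of the difference.

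Among genes known to stop, degrade or repress noncoding RNAs, 1 was called. Of 41 listed factors of nuclear RNA surveillance and transcription termination, among them the exosome subunits, mtr4, red1, mmi1 and seb1, 39 were tested. None was called in ebp1Δ, eaf1Δ, either ell1Δ group or eaf1Δ against ebp1Δ, where limma called 0.244% to 3.67% of all genes tested. At an unadjusted p below 0.05 by limma, 0 to 3 of the 39 passed, beside 4.24% to 17% of all genes tested. The 3 in ebp1Δ stood beside the 17%. Their median log2 fold change ran from -0.05 to 0.06 over these comparisons, beside -0.01 to 0.01 for all genes tested. Of 27 listed chromatin factors that repress cryptic transcription, 25 were tested, with medians from -0.08 to 0.06. At an unadjusted p below 0.05 by limma, 0 to 4 of the 25 passed, the 4 in ED666b ell1Δ, beside 5.76% of all genes tested. Whether either list differs from all genes was not tested. Of the 25 chromatin factors 1 was called, cph1, which encodes a subunit of a Clr6 histone deacetylase complex. It rose in ED666b ell1Δ, at 165 ± 8.08 scaled CPM against 114 ± 10.3 in wild type (SD, n = 2 each; log2 fold change 0.54, SE 0.10, adjusted p = 0.0377). No factor of either list was called in the other comparisons.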

How the data were processed

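PolyA RNA-seq libraries of 7 groups were read from 1 table deposited by the authors, and the 23 ChIP and input samples of the series of 40 were not analysed here. The deposited signal values are named CPM in the file headers, and their sums differ between libraries, so they are called scaled CPM. The authors' deposited RPKM values gave each gene's length, as the ratio of scaled CPM to RPKM, and levels per length are group means of scaled CPM over that length in kilobases. The authors' deposited log2 fold changes and adjusted p-values were copied unchanged. Per the submitters' processing notes, TopHat2 2.1.1, Bowtie2 2.2.9, SAMtools 1.3.1, MACS2 and edgeR were used in the series with genome build ASM294v2, and their roles are not given there. Each column held whole multiples of 1 read for 100% of values within a tolerance of 0.01 read, so total reads per library (6486554 to 43374049) could be recovered. Intervals and limits cover counting error only. Genes with at least 1 scaled CPM in 2 or more libraries (6160 of 7013) were fitted as log2(value + 1) with limma 3.58.1 in R 4.3.3, in 1 model over the 7 groups with 10 residual degrees of freedom and without a replicate block. Moderated tests were two-sided, and p-values were adjusted by Benjamini-Hochberg over all genes tested with a threshold of 0.05. Fold changes on this scale understate the change of low genes. The alternative count test was edgeR 4.0.16, quasi-likelihood, on the recovered reads. Other alternatives were a pseudocount of 0.25, a filter of 2 and no filter, only the groups compared, quantile normalization, a replicate block, and each library left out in turn. The 3 ebp1Δ columns carry a code that no label explains, and they were assigned to the ebp1Δ samples because every other RNA column names another sample. The fitting procedure was tested on simulated data. Gene order came from RefSeq assembly ASM294v3, used for neighbours only, and no sequence or coordinate is given because the builds differ. Named members were, by rule, up to 10 called in each direction of a comparison without overlap of libraries, the 10 with the highest group mean, the 10 with the largest range of group means, 10 with a name of their own, and those at the bounds; for the 3 of largest range, the 3 genes most like each were added. Any other member named was chosen after its values were seen. The members and lists were chosen with earlier results of these data known. No 2 libraries agreed within sampling noise. Replicate numbers were not taken as pairs.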

Additional observations from a re-analysis of the deposited data

How the results depend on the processing

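Alternatives were run for 50 pairs of named member and comparison, and none turned a direction there. Of these 609 values, 495 kept their side of the threshold, 98 lost a call and 16 gained one. The counts of called members moved as follows. For ebp1Δ against wild type, 8 members became 5 with no filter, 2 with only the groups compared, 1 with edgeR and 15 with the replicate block, and 1 to 9 with a library left out. All genes moved too, with 3.67% called as reported, 3.33% with no filter, 1.06% with only the groups compared and 2.89% with edgeR. The share was 5.52% with the replicate block and 2.18% to 5.97% with a library left out. With quantile normalization the 8 split into 7 up and 1 down, beside 3.83% of all genes tested. For eaf1Δ, 1 member (beside 0.844% of all genes tested) became 0 with a pseudocount of 0.25 (0.812%), 0 with no filter (0.788%) and 0 with edgeR (0.422%). It became 3 with quantile normalization (1.27%), 4 with the replicate block (1.48%), and 0 to 1 with a library left out (0.341% to 1.14%). For ell1Δ in ED666b, 0 members (beside 0.519% of all genes tested) became 1 with only the groups compared (0.357%). They became 2 with edgeR (0.812%) and 2 with the replicate block (0.731%). For ell1Δ in Pem2, 0 (beside 0.244%) became 3 with edgeR (0.617%). With the replicate block 1 was called there (0.455%), SPNCRNA.911 at a limma adjusted p of 0.0493. For eaf1Δ against ebp1Δ, 8 (beside 2.97%) became 3 with edgeR (2.39%) and 12 with only the groups compared (5.24%). They became 12 with the replicate block (4.63%) and 2 to 5 with a library left out (1.67% to 2.47%). For Pem2 against ED666b wild type, 0 (beside 0.0812%) became 1 with only the groups compared (0.114%) and 1 with edgeR (0.179%). The cause of these moves was not tested, beyond the fewer samples of the smaller fits. Libraries of the same number correlated in their deviations at -0.219 to 0.243 in ED666, at 0.653 in ED666b and at 0.657 in Pem2, the last 2 with 2 pairs each, and at 0.424 between the wild types of Pem2 and ED666b. No label says what the number marks, so the fit without the block was kept. The members' median in ED666b ell1Δ was 0.06, and -0.05 with quantile normalization. A median member rested on 14 to 24 reads in ED666, which limits the precision there.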
